A study of Mus musculus with 14 samples.

Results

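The 7 interferon regulatory factor genes Irf1, Irf2, Irf3, Irf5, Irf7, Irf8 and Irf9 were followed across germinal centre (GC) B cells of mice. They were chosen by gene symbol, and each had its own row among the 9969 genes of the deposited table of unique molecular identifiers (UMIs). The cells came from popliteal lymph nodes of C57BL/6 chimeras, in which 50% of cells were wild type (WT) and 50% carried SykY317F. SykY317F is a form of Syk, the kinase that relays antigen receptor signals in B cells, with a tyrosine replaced by phenylalanine. All mice had been immunised with NP-KLH, a hapten coupled to a carrier protein, and the nodes were taken 14 days later. Sorted cells formed 4 groups, with 3 SykY317F light zone (LZ) libraries, 3 SykY317F dark zone (DZ) libraries, 4 WT LZ libraries and 4 WT DZ libraries. In the DZ, GC B cells proliferate and their antibody genes mutate, and in the LZ they compete for antigen and T cell help. Cells of both genotypes developed in the same kind of mixed host, so a measured genotype difference is one between cells that shared a host type. Whether each library stands for a separate mouse is not stated in the labels, so p-values measure the spread between these libraries, which may be technical.

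Interferon regulatory factors share a DNA-binding domain that recognises the interferon-stimulated response element. Some carry signals from pattern recognition receptors to interferon genes (Irf3, Irf5 and Irf7), Irf9 is the DNA-binding part of the complex formed after type I interferon, and Irf1 and Irf2 act on overlapping sites as an activator and a frequent antagonist of it. Irf8 works with the ETS factors PU.1 and Spi-B in B cells and takes part in the GC programme. The remaining B cell member, Irf4, is treated here only as a point of comparison.

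Library depth was 149641 to 379125 UMIs for SykY317F LZ and 381954 to 1413310 UMIs for SykY317F DZ, against 499443 to 1600902 UMIs for WT LZ and 747948 to 1767898 UMIs for WT DZ. Per 100 reads there were 9.37 to 15.8 UMIs in SykY317F LZ and 15.6 to 43.0 in SykY317F DZ, against 33.5 to 42.5 in WT LZ and 42.1 to 53.2 in WT DZ. Depth therefore moved with genotype and zone, and its part in the results below was not tested. Of 11 GC B cell markers 10 had a row (Mef2b had none), and 9 of those 10 were above 0 in every library. The summed level of 4 LZ markers was 2021 to 2095 CPM in SykY317F LZ and 1139 to 1551 in SykY317F DZ, and 1574 to 1990 in WT LZ and 969.6 to 1231 in WT DZ, so for these markers the zone groups did not overlap in either genotype. The summed level of 4 DZ markers was 614.9 to 829.8 CPM in SykY317F LZ and 801.1 to 890.1 in SykY317F DZ, which overlapped, and 518 to 645.5 in WT LZ and 847.8 to 1194 in WT DZ, which did not. Of these, Cxcr4 and Foxo1 had log2 fold changes of LZ over DZ of 0.24 and -0.02 in SykY317F and -0.62 and -0.42 in WT. Levels are given as CPM, the UMI count relative to a library total scaled by TMM. CPM was not divided by gene length, because each UMI marks the end of a transcript once. Syk was at 414 ± 27.0 CPM in SykY317F LZ and 547 ± 68.9 in SykY317F DZ (SD, n = 3 each), against 422 ± 61.4 in WT LZ and 517 ± 57.6 in WT DZ (n = 4 each). A point mutation leaves the mRNA in place, so this does not check the genotype labels.

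The stretches upstream of 3 members are shown because they held the motifs through which interferon signals act on promoters, and the other members' windows did not. The windows are RefSeq sequences of GRCm38.p6, in which all 7 members were matched by symbol with 10 windows of 300 bases. Capitals mark matches to the gamma-activated site, searched as TTCNNNGAA, and to the interferon-stimulated response element, searched as GAAA, any 2 bases and GAAA, on both strands. The 250 bases before each RefSeq start are printed 5′ to 3′ on the plus strand, at chr11:53769764-53770013 for Irf1, chr8:46739495-46739744 for Irf2 and chr8:120736108-120736357 for Irf8.
Irf1: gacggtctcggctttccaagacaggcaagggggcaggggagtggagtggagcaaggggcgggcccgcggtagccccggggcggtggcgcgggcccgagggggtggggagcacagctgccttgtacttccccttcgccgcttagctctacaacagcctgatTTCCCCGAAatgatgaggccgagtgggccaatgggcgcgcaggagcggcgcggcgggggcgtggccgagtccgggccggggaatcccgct
Irf2: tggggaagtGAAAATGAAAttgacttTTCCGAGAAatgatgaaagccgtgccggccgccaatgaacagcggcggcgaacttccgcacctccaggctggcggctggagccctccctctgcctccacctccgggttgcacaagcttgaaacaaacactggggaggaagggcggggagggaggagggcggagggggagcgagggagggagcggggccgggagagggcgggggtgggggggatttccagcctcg
Irf8: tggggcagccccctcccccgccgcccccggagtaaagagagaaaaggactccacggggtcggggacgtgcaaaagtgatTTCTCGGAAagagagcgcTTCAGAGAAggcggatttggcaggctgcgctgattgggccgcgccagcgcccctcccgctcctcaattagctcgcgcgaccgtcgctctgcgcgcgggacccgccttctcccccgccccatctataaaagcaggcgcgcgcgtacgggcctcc

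Upstream of Irf1 the gamma-activated site began 90 bases before the start. Irf2 held a response element 241 bases and a gamma-activated site 224 bases before its start. Irf8 held a pair of gamma-activated sites, 171 and 153 bases before its start. No marked motif overlapped another. The windows of Irf3, Irf5, Irf7 and Irf9, and a second window each of Irf1 and Irf8, held neither string of letters. Of all 32851 mouse windows of this length, 8.3% held the gamma-activated site and 3.44% the response element. The matches describe the letters only and do not show that a factor binds there.

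Irf8 was the most abundant of the 7 genes (chromosome 8, 120736358 to 120756694, GRCm38, plus strand). It was at 880.5, 807 and 558 CPM in SykY317F LZ and at 751, 509.9 and 672 CPM in SykY317F DZ. In WT LZ it was at 653, 679, 877 and 712 CPM, and in WT DZ at 815.5, 518, 529 and 725 CPM. The 4 groups overlapped throughout. Across the 14 libraries Irf8 had the smallest relative spread of the members, with a coefficient of variation of 18.5% and a highest value 1.73 times the lowest. It also had the most UMIs (8607) and so the smallest relative counting error. The per-gene coefficient of variation of edgeR, which sets counting error apart, was 23.6% for Irf8 and 22.6% for Irf1. Group means were 749 ± 169 CPM in SykY317F LZ and 644 ± 123 in SykY317F DZ, and 730.2 ± 100.9 in WT LZ and 647 ± 148 in WT DZ, so both LZ means stood above both DZ means by less than the larger standard deviation. The log2 fold change of LZ over DZ was 0.22 ± 0.26 (SE) in SykY317F and 0.17 ± 0.22 in WT, and edgeR's adjusted p was 0.821 and 0.878. Between genotypes it was -0.006 ± 0.24 in DZ and 0.04 ± 0.25 in LZ, with 95% intervals of -0.51 to 0.50 and -0.47 to 0.55. In the annotation Irf8 lies inside the predicted gene Gm20388 on the same strand, which had no row in the table.

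Irf8 made up 34.0% to 48.3% of the UMIs of the 7 genes in each library, with a median of 41.0%. Irf3 and Irf5 followed, with medians of 17.2% and 17.8%. The other 4 genes each had a median share of 3.52% to 6.88%, with Irf7 the lowest.

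**Figure D1:**
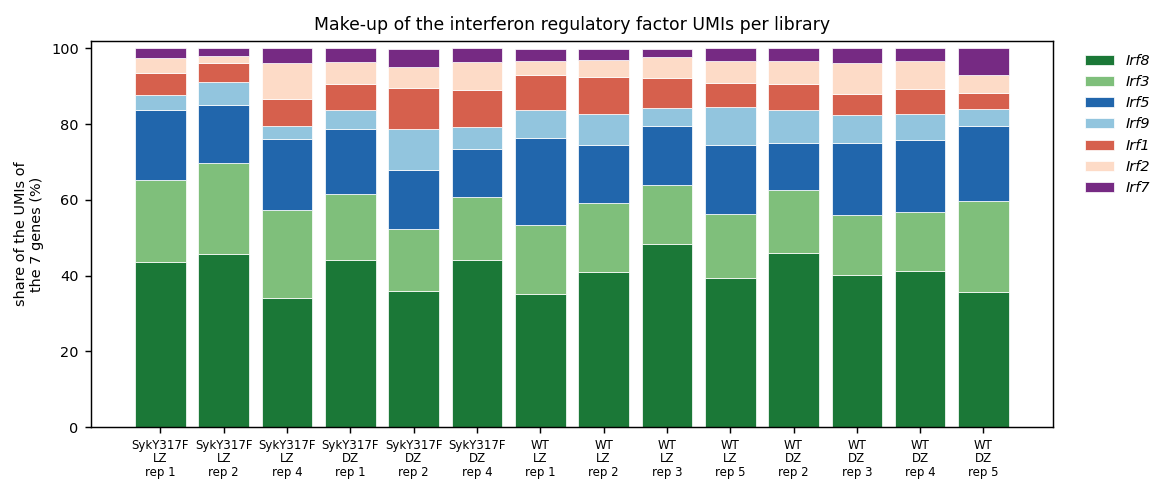
Stacked bars show the share of the UMIs of the 7 genes (%) taken by each gene in each of the 14 libraries, SykY317F left of WT and LZ left of DZ. Irf8 takes 34.0% to 48.3% in every library, and Irf3 takes 21.5% to 24.0% in SykY317F LZ, against 15.5% to 18.3% in WT LZ. The highest Irf3 share of the 14 libraries, 24.2%, is that of WT DZ replicate 5.

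Of the members downstream of innate sensors, Irf3 was the highest on average (chromosome 7, 44997648 to 45002848, plus strand). This factor sits inactive in the cytoplasm until it is phosphorylated by the kinases TBK1 and IKKε. It was at 433, 423 and 383 CPM in SykY317F LZ and at 296, 235 and 254 CPM in SykY317F DZ. WT LZ libraries had 336, 303.5, 282 and 307 CPM, and WT DZ libraries 298, 205, 200.2 and 494 CPM. Every SykY317F LZ library was above every SykY317F DZ library and above every WT LZ library, while WT LZ and WT DZ overlapped. WT DZ replicate 5 held the highest value of all 14, and WT DZ replicate 2 also lay above WT LZ replicate 3.

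For the SykY317F zones, the log2 fold change of Irf3 in LZ over DZ was 0.66 ± 0.29, with means of 413 ± 26.7 and 262 ± 31.4 CPM. It did not pass the threshold (edgeR, unadjusted p = 0.0362, adjusted p = 0.453). Groups that do not overlap, higher in LZ, were found for 6.56% of all tested genes in this contrast. In WT the same zone contrast was 0.04 ± 0.25, and 0.41 when WT DZ replicate 5 was left out. The difference between these zone effects was 0.62 ± 0.38 (edgeR adjusted p = 0.999) and 0.23 without that library. Between genotypes in LZ, Irf3 was at 413 ± 26.7 CPM in SykY317F and 307 ± 22.0 CPM in WT, a log2 fold change of 0.43 ± 0.27 (edgeR adjusted p = 0.643), and 3.84% of all genes had groups apart in that direction. The first bases of Irf3 overlap Bcl2l12 on the other strand, away from the 3′ end that this assay reads.

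Irf5, which acts below Toll-like receptors and MyD88, was nearly as abundant (chromosome 6, 29526625 to 29541871, plus strand). SykY317F LZ libraries had 370.1, 265 and 307 CPM, and SykY317F DZ libraries 293, 219 and 193.5 CPM. In WT LZ it was at 425, 254, 284 and 331 CPM, and in WT DZ at 220.1, 246, 245 and 400 CPM. All 4 groups overlapped. LZ exceeded DZ by a log2 fold change of 0.42 ± 0.28 in SykY317F and 0.22 ± 0.23 in WT, and edgeR's adjusted p was 0.654 and 0.846. The last 1045 bases of Irf5 overlap Tnpo3 on the other strand. The strand setting of the counting is not given in the sources used here, so reads of these genes may not be told apart.

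Irf7, the factor that amplifies type I interferon production and is itself an interferon-induced gene, was the least abundant (chromosome 7, 141262706 to 141266481, minus strand). It was at 53.7, 33.9 and 62.7 CPM in SykY317F LZ, from 18, 6 and 10 UMIs, and at 63.2, 67.9 and 55.3 CPM in SykY317F DZ. WT LZ libraries had 58.1, 50.4, 38.4 and 64.1 CPM, and WT DZ libraries 62.1, 50.7, 44.5 and 146 CPM. WT DZ replicate 5, with 233 UMIs, was again the highest library, and the other 13 lay between 33.9 and 67.9 CPM. LZ over DZ was -0.52 ± 0.33 on the log2 scale in WT (edgeR adjusted p = 0.704) and 0.06 without WT DZ replicate 5. In SykY317F it was -0.32 ± 0.44, with a 95% interval of -1.24 to 0.60 over the few UMIs of the SykY317F LZ libraries. Its last 45 bases overlap Phrf1 on the other strand, with the same limit on strand as for Irf5.

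WT DZ replicate 5 thus had the highest Irf3 and Irf7 of all libraries and the highest Irf5 of the WT DZ group. Myeloid cells and plasmacytoid dendritic cells also transcribe these factors and Irf8, so their markers were summed. The 9 of 10 myeloid markers with a row summed to 50.7 to 124 CPM in SykY317F LZ and 264 to 556 CPM in SykY317F DZ, and to 59.5 to 161 CPM in WT LZ and 91.9 to 397 CPM in WT DZ. Of the 10 plasmacytoid dendritic cell markers 5 had a row, and the defining Siglech and Ccr9 had none. These 5 summed to 138 to 242 CPM in SykY317F LZ and 221 to 304 CPM in SykY317F DZ, and to 205 to 299.5 CPM in WT LZ and 228 to 285 CPM in WT DZ. WT DZ replicate 5 had 214 CPM of the myeloid and 268 CPM of the plasmacytoid markers, inside the range of its group for both. In SykY317F all 7 tested myeloid markers had negative fold changes of LZ over DZ (median -2.49 on the log2 scale), and none passed the threshold (edgeR adjusted p 0.25 to 0.879). In that contrast Irf3, Irf5 and Irf8 were at 0.66, 0.42 and 0.22, and Irf7 was at -0.32. The part of such cells in the values was not tested.

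Irf9 acts in the nucleus on interferon-stimulated genes (chromosome 14, 55603571 to 55610030, plus strand). Its levels were 80.6, 107 and 56.45 CPM in SykY317F LZ, from 27, 19 and 9 UMIs, and 85.7, 155 and 88.5 CPM in SykY317F DZ. They were 137, 134, 90.2 and 181 CPM in WT LZ and 151, 92.5, 89.0 and 91.1 CPM in WT DZ. SykY317F LZ had the lowest mean and WT LZ the highest, with SykY317F LZ replicate 2 above WT LZ replicate 3. The log2 fold change of SykY317F over WT in LZ was -0.75 ± 0.34 (edgeR, unadjusted p = 0.0384, adjusted p = 0.467), with means of 81.4 ± 25.4 CPM and 136 ± 37.2 CPM. In DZ the same contrast was 0.08 ± 0.29. LZ over DZ was -0.45 ± 0.36 in SykY317F and 0.38 ± 0.27 in WT, and the difference of these effects was -0.83 ± 0.45 (edgeR, unadjusted p = 0.0787, adjusted p = 0.999). The directions were thus opposite in the fitted values, and no test passed. Without SykY317F DZ replicate 2 the SykY317F zone value was -0.095 and the difference -0.47, without SykY317F LZ replicate 2 they were -0.70 and -1.07, and without SykY317F LZ replicate 4 the zone value was -0.28. The WT zone value was 0.205 without WT LZ replicate 5 and 0.59 without WT DZ replicate 2. The gene's first 123 bases overlap Rnf31 on the same strand, away from the 3′ end of Irf9. Rnf31 has a row of its own, and strand could not tell reads of these bases apart.

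Irf1, an activator induced by interferon gamma and linked to antigen presentation genes, had the smallest p of the members in 3 contrasts (chromosome 11, 53770014 to 53778374, plus strand). It was at 116, 90.3 and 119 CPM in SykY317F LZ, from 39, 16 and 19 UMIs, and at 114, 151 and 146.5 CPM in SykY317F DZ. In WT LZ it was at 172, 165, 140.1 and 111 CPM, and in WT DZ at 126, 71.6, 83.65 and 87.9 CPM. Of the WT libraries, 3 of the 4 LZ values were above every DZ value, and WT LZ replicate 5 lay below WT DZ replicate 2. The means were 147 ± 27.5 CPM in WT LZ and 92.2 ± 23.3 CPM in WT DZ, a log2 fold change of 0.68 ± 0.23 (edgeR, unadjusted p = 0.00691, adjusted p = 0.295, 187th smallest p of 7999 genes).

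In SykY317F the zone order of Irf1 was the other way round, at 109 ± 15.9 CPM in LZ and 137 ± 20.3 CPM in DZ, a log2 fold change of -0.33 ± 0.29. The test of the difference between the zone effects gave -1.01 ± 0.37 on the log2 scale (edgeR, unadjusted p = 0.0121, adjusted p = 0.991), and it stayed between -1.19 and -0.90 when any library was left out. Within DZ, SykY317F stood above WT by 0.58 ± 0.24 (edgeR, unadjusted p = 0.0281, adjusted p = 1). Within LZ the difference was -0.43 ± 0.27.

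T cell markers were measured beside Irf1. The 6 T cell markers with a row summed to 47.8 to 158 CPM in SykY317F LZ and 90.8 to 218 CPM in SykY317F DZ, against 55.7 to 173 CPM in WT LZ and 19.4 to 58.7 CPM in WT DZ. Of the 8 listed markers Cd8a and Trac had no row, and Cd3e and Cd3g were at 0 in 4 libraries each. All 4 tested T cell markers were higher in WT LZ than in WT DZ (median log2 fold change 1.99) and higher in SykY317F DZ than in WT DZ (median 2.64), and for the difference of zone effects all 4 were negative (median -3.08). None of the 4 passed the threshold there, with edgeR's adjusted p at 0.309 to 0.701 for the WT zones, 0.766 to 1 for genotype in DZ and 0.991 to 0.999 for the difference of zone effects. These are the 3 contrasts in which Irf1 had an unadjusted p under 0.05. By the same unadjusted measure of edgeR, 3 of the 4 markers were under 0.05 in the WT zones and 4 of 4 for genotype in DZ. Where zone effects were compared between genotypes, 3 of the 4 markers had such a p. It was found for 1 of 4 in the SykY317F zones and for 0 of 4 for genotype in LZ. In the SykY317F zones and for genotype in LZ all 4 markers were negative (medians -0.96 and -0.37), with Irf1 at -0.33 and -0.43. Single libraries did not all follow the contrasts. SykY317F LZ replicate 2 had 158 CPM of T cell markers and 90.3 CPM of Irf1. WT LZ replicate 3 had 55.7 CPM and 140.1 CPM, and WT DZ replicate 4 had 58.7 CPM and 83.65 CPM. The part of T cell RNA in the Irf1 values was not tested. Bulk libraries also cannot tell fewer cells of a type from less RNA per cell.

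**Figure D2:**
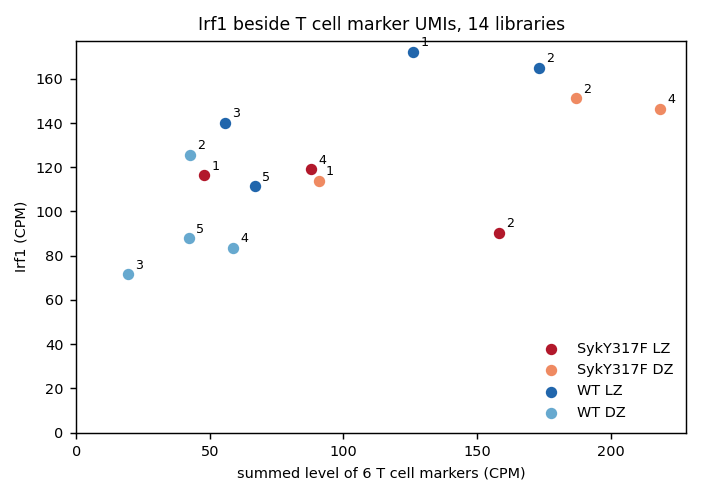
Each point is a library, placed by the summed level of the 6 measured T cell markers (CPM, x axis) and the level of Irf1 (CPM, y axis), labelled with its replicate number and coloured by group. The 4 WT DZ libraries lie at 19.4 to 58.7 CPM of T cell markers, and 3 of them have the lowest Irf1 of all libraries.

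Irf2, a constitutive factor that often opposes Irf1, was the member with the most uneven values in SykY317F LZ (chromosome 8, 46739732 to 46847458, plus strand). It was at 80.6, 33.9 and 157 CPM there, from 27, 6 and 25 UMIs, and at 98.0, 81.4 and 113 CPM in SykY317F DZ. WT LZ libraries had 71.3, 72.2, 104 and 105 CPM and WT DZ libraries 105, 107, 95.2 and 95.45 CPM. The lowest and the highest library of all 14 were both SykY317F LZ libraries. The WT DZ values were the tightest, at 100.7 ± 6.31 CPM. Zone differences on the log2 scale were -0.12 ± 0.36 in SykY317F and -0.19 ± 0.28 in WT, and genotype differences were -0.06 ± 0.30 in DZ and 0.01 ± 0.34 in LZ. The Poisson 95% interval of the replicate with 6 UMIs ran from 12.4 to 73.7 CPM, so counting error alone was wide in this group, and intervals of this kind cover counting error only.

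**Figure D3:**
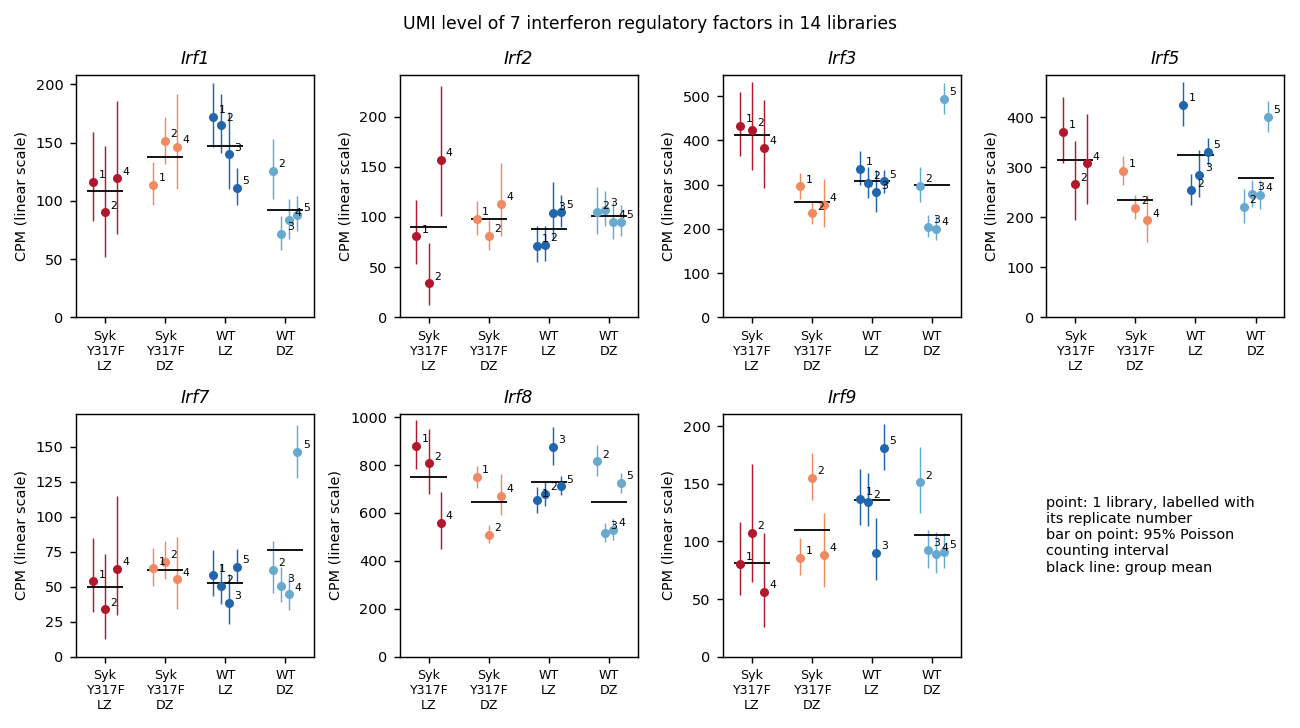
Each panel shows a gene, with CPM on a linear scale for every library by group, SykY317F left of WT and LZ left of DZ. Points are libraries labelled with their replicate number, bars are 95% Poisson counting intervals and black lines are group means. Irf3 in SykY317F LZ (383 to 433 CPM) stands clear of SykY317F DZ (235 to 296 CPM), and WT DZ replicate 5 stands above the rest of its group for Irf3, Irf5 and Irf7.

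The 4 groups of a gene, ordered by mean, form 3 neighbouring pairs. For Irf3 the pair at the top did not overlap, with SykY317F LZ (413 CPM) above WT LZ (307 CPM), and its lower pairs did. For the other 6 genes all neighbouring groups overlapped in range. These pairs were set by the order of the means in the same values, and no share over all genes was computed for them. For the fixed contrast in LZ, 3.84% of all genes had SykY317F wholly above WT. The orders also differed among members. SykY317F LZ was the highest group for Irf3 and Irf8 and the lowest for Irf7 and Irf9, while WT LZ was the highest for Irf1, Irf5 and Irf9.

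Tested over all 7999 genes that passed the filter on low counts, which all 7 members passed, no member passed the threshold in any contrast. For LZ over DZ in SykY317F, 0 of 7 members were called by edgeR, against 3 genes or 0.0375% of all. For LZ over DZ in WT, 0 of 7 were called, against 15 genes or 0.188%. For the mean of these zone effects, 0 of 7 were called, against 114 genes or 1.43%. The genotype contrasts in DZ, in LZ and averaged over zones and the difference of zone effects called 0 members and 0% of all genes.

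At an unadjusted p under 0.05 edgeR had 1 member in each of 5 contrasts and 0 in both averaged ones, where 14.3% (zone) and 10.1% (genotype) of all genes had such a p. These were Irf3 for the SykY317F zones (where 10.3% of all genes had such a p), Irf1 for the WT zones (8.48%), Irf1 for genotype in DZ (3.81%), Irf9 for genotype in LZ (9.81%) and Irf1 for the difference of zone effects (4.8%). DESeq2's Wald test called 0 members in every contrast. With limma voom and sample quality weights Irf1 was called for the WT zones, at 0.80 ± 0.19 and an adjusted p of 0.0284, and no other member was called in any contrast. Voom called 292 of all 7999 genes in the WT zones, against 15 with edgeR.

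The members did not move as a block. In SykY317F 3 of 7 were higher in LZ, with a median log2 fold change of -0.12, beside -0.04 over all genes, of which 46.7% were higher. In WT 5 of 7 were higher in LZ, with a median of 0.17, beside -0.02 over all genes, of which 48.3% were higher. SykY317F exceeded WT for 2 of 7 in DZ (median -0.06) and 3 of 7 in LZ (median -0.03), beside medians over all genes of -0.04 and -0.06 and shares higher of 45% and 46%. Irf4, set beside them, was at 112 ± 94.8 CPM in SykY317F LZ, 79.4 ± 80.4 in SykY317F DZ, 82.8 ± 44.0 in WT LZ and 35.5 ± 11.6 in WT DZ. Its WT LZ values (54.85 to 148 CPM) were all above its WT DZ values (24.6 to 46.6 CPM), as for 2.89% of all genes, a log2 fold change of 1.25 ± 0.60 that did not pass either (edgeR adjusted p = 0.599).

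**Figure D4:**
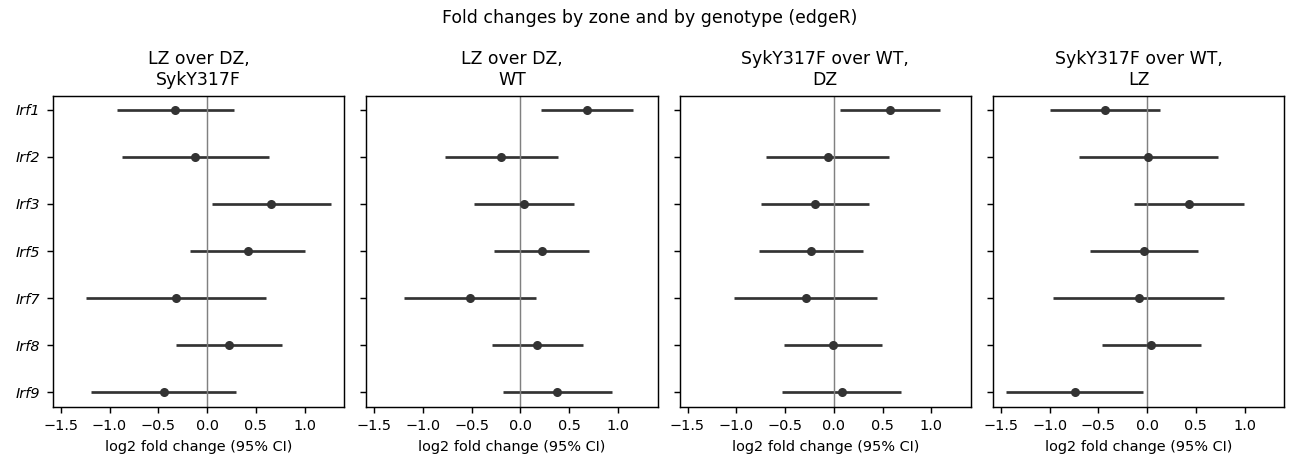
Panels show the log2 fold change of each member with its 95% confidence interval (x axis) for LZ over DZ in SykY317F and in WT, and for SykY317F over WT in DZ and in LZ. The intervals of Irf3 in the SykY317F zones, Irf1 in the WT zones, Irf1 in DZ and Irf9 in LZ leave 0 out before adjustment over all genes.

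In the 6 comparisons of the authors' deposited table, which was made from the same UMI counts, 0 of the 7 members had an adjusted p under 0.05. The smallest adjusted p of a member in the authors' deposited table was 0.177, for Irf1 in WT LZ over WT DZ, with the authors' log2 fold change of 0.68. In the authors' deposited table the WT zones had 0.782% of genes under 0.05 and the SykY317F zones 0.221%.

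Across the 14 libraries the members followed different genes, as a description of libraries that share depth differences and group structure. Among members, the closest pair was Irf3 and Irf5, with a Pearson r of 0.67 and a Spearman rho of 0.75 of log2 CPM, followed by Irf3 and Irf8 with an r of 0.58. Out of 5456 other genes with a mean of at least 20 CPM, the pattern most like Irf1 was that of Lat, the adaptor of T cell receptor signalling, with an r of 0.87, ahead of Arap1 and Ppp6r1 at about 0.80 each. Lat was at 36.9 ± 8.30 CPM in SykY317F LZ and 65.0 ± 18.2 CPM in SykY317F DZ, and at 49.6 ± 13.1 CPM in WT LZ and 28.1 ± 8.92 CPM in WT DZ. Lat is itself among the T cell markers summed above, with the most UMIs of them (541). That sum and this likeness therefore share a gene and are not separate observations.

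The genes nearest to Irf3 were Fes (r = 0.92), Dalrd3 (0.91) and Flna (0.89), and those nearest to Irf5 were Bcar3 (0.89), Tmem39b (0.84) and Adam17 (0.83). Irf7 was followed most closely by Babam1 (r = 0.89), Cyp27a1 (0.80) and Cnppd1 (0.79), though Spearman's rho for Babam1 was 0.55. For Irf8 these were Thoc5 (r = 0.85), Pdlim7 (0.84 by r and 0.79 by rho) and Pcyt2 (0.83). Irf9 was nearest to Gmip (r = 0.81), Mettl17 (0.79) and Cdadc1 (0.78), and Irf2 to Pmpca (r = 0.93), Prr14l (0.91) and Prrc2c (0.89). None of these nearest genes was another member or Irf4.

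Genes around the factors were read from 5 lists, chosen with earlier results of these data known. The lists had 9, 12, 21, 9 and 13 tested genes. In the averaged zone contrast 1.43% of all genes were called. Of the list genes 1 was called, a share close to that over all genes, and it was lower in LZ. This was Bcl6, the repressor that defines GC B cells and is a target of Irf8. It was at 141 ± 49.9 CPM in SykY317F LZ and 269 ± 48.8 CPM in SykY317F DZ, and at 261 ± 39.6 CPM in WT LZ and 391 ± 75.6 CPM in WT DZ. Its log2 fold change was -0.77 ± 0.18 (edgeR adjusted p = 0.0359). The call was lost with read counts (adjusted p = 0.193), without the 2 libraries with the fewest UMIs (0.144), and when SykY317F LZ replicate 1 or 2, SykY317F DZ replicate 1 or 2, WT LZ replicate 1 or 2, or WT DZ replicate 3 or 4 was left out (edgeR adjusted p 0.0522 to 0.121), with a fold change of -0.69 to -0.80 in each of these.

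Interferon receptors and the JAK-STAT kinases and factors below them had 9 tested genes, with 0 called and 7 of 9 higher in LZ in the averaged contrast (median log2 fold change 0.29, beside -0.03 over all genes, of which 46.3% were higher). The smallest p-values belonged to a chain of the interferon gamma receptor, Ifngr2, at 0.60 ± 0.22 (edgeR adjusted p = 0.206), and to its kinase Jak2, at 0.68 ± 0.27 (adjusted p = 0.229). Ifngr2 was at 142 ± 49.0 CPM in SykY317F LZ and 80.3 ± 39.1 CPM in SykY317F DZ, and at 88.8 ± 15.6 CPM in WT LZ and 66.5 ± 12.6 CPM in WT DZ. Jak2 was at 118 ± 27.2 CPM in SykY317F LZ and 56.6 ± 10.2 CPM in SykY317F DZ, and at 75.8 ± 25.1 CPM in WT LZ and 60.2 ± 29.8 CPM in WT DZ. The other chain of that receptor, Ifngr1, differed by 0.40 ± 0.23.

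Sensors and kinases upstream of Irf3, Irf5 and Irf7 had 16 of 19 genes with a row and 12 tested, of which 8 were higher in LZ and 0 were called (median 0.20). Ikbke, which encodes the kinase IKKε, was at 37.5 ± 11.5 CPM in SykY317F LZ and 15.0 ± 4.68 CPM in SykY317F DZ, and at 20.1 ± 10.4 CPM in WT LZ and 10.4 ± 1.22 CPM in WT DZ. Its averaged zone difference of 1.12 ± 0.32 missed the threshold (edgeR adjusted p = 0.0924). Ikbke rested on few UMIs, at 4 to 16 per library in SykY317F LZ and 4 to 30 in SykY317F DZ. In WT there were 5 to 30 per library in LZ and 7 to 18 in DZ. Unc93b1, the chaperone that brings nucleic acid sensing Toll-like receptors to endosomes, differed by 0.68 ± 0.22 (edgeR adjusted p = 0.143). The adaptor Ticam1 differed by 0.68 ± 0.26 (edgeR adjusted p = 0.228).

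Interferon-stimulated genes, the usual targets of the family, showed no common direction. Of 38 genes 34 had a row and 21 were tested, with 12 of 21 higher in LZ and 0 called (median 0.04). In SykY317F over WT averaged over zones 9 of 21 were higher (median -0.05, the same as over all genes, of which 44.7% were higher), with 0 called. The smallest p-values in the zone contrast were those of Ifi27 (0.28 ± 0.16), Parp14 (0.33 ± 0.19) and Ifitm3 (-1.38 ± 0.97), the last from 1 UMI in SykY317F LZ and 16 in SykY317F DZ. The summed level of the 34 genes was 1505 to 1654 CPM in SykY317F LZ and 1598 to 1609 CPM in SykY317F DZ, and 1422 to 1652 CPM in WT LZ and 1256 to 1711 CPM in WT DZ, with all groups overlapping.

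Antigen presentation genes tied to Irf1 had 9 tested genes, 8 of them higher in LZ and 0 called (median 0.13). The peptide loading chaperone Tapbp was at 238 ± 88.3 CPM in SykY317F LZ and 144 ± 27.3 CPM in SykY317F DZ, and at 245 ± 65.8 CPM in WT LZ and 153 ± 44.1 CPM in WT DZ, a log2 difference of 0.67 ± 0.21 (edgeR adjusted p = 0.123). Ciita and Nlrc5, the transactivators of class II and class I genes, differed by 0.64 ± 0.20 and 0.61 ± 0.21 (edgeR adjusted p = 0.132 and 0.162). These 3 genes were named for the smallest p in the averaged contrast. Their values above 0 in both genotypes therefore follow largely from that choice. Of all 9 genes, 8 were higher in LZ in SykY317F and 6 in WT. Irf1 was at -0.33 in SykY317F and 0.68 in WT, and its link to these genes was not tested.

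Partners and co-regulators had 13 tested genes, 5 of them higher in LZ (median -0.05). Besides Bcl6, the smallest p-values were those of Ikzf3, a lymphoid zinc finger factor, at -0.49 ± 0.19 (edgeR adjusted p = 0.216), and of Pax5, the factor of B cell identity, at -0.99 ± 0.50 (edgeR adjusted p = 0.37). Pax5 rested on few UMIs, with 5 in all in SykY317F LZ (1 to 3 per library) and 1 to 28 per library in WT LZ. Of the ETS partners of Irf8, Spi1, which encodes PU.1, was at 222 ± 17.9 CPM in SykY317F LZ, 200.4 ± 35.6 in SykY317F DZ, 223 ± 51.6 in WT LZ and 172 ± 39.3 in WT DZ. Its averaged zone difference was 0.26 ± 0.18 (edgeR adjusted p = 0.515). Spib was at 1297 ± 203 CPM in SykY317F LZ, 1159 ± 80.8 in SykY317F DZ, 1076 ± 207 in WT LZ and 1298 ± 108 in WT DZ. Both had been picked as the known partners of Irf8 and not by the size of their change.

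**Figure D5:**
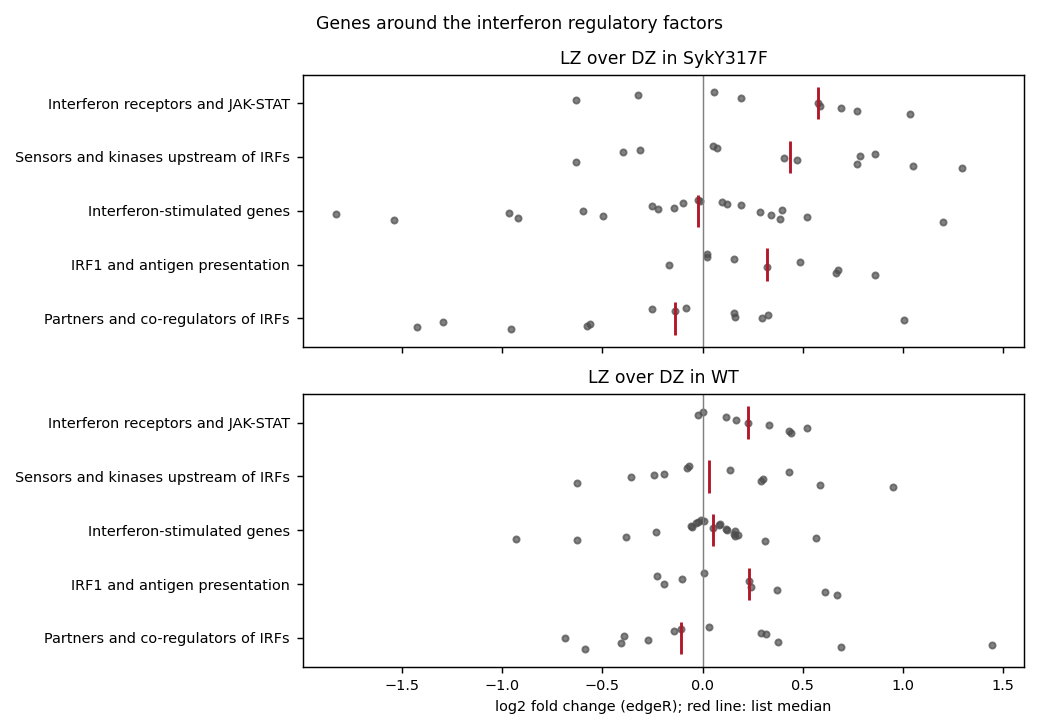
Points are the tested genes of the 5 lists, placed by their log2 fold change of LZ over DZ (x axis) in SykY317F (upper panel) and WT (lower panel), with a red line at each list's median. In SykY317F the receptor and sensor lists have medians of 0.58 and 0.44, and in WT 0.23 and 0.03, and no point was called in either panel.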

How the data were processed

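Per the labels' protocols, cells were sorted into lysis buffer, oligo(dT) beads captured the mRNA, and libraries followed a variation of MARS-seq, a method whose UMIs let PCR copies of a transcript count once. The build mm10 and the tools STAR 2.4.2a, HTSeq, cutadapt, DESeq and DESeq2 are named, without their roles, in the submitters' processing notes. How strand and multimapping reads were counted is not given in the sources used. The authors deposited raw UMI counts (9969 genes), raw read counts (11914 genes), log2 fold changes and adjusted p-values. The deposited tables also hold 28 columns of normalised and regularised values per library, which were not used.

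UMI counts were filtered with filterByExpr (7999 genes, 99.3% of UMIs), scaled by TMM and fitted over the 4 groups with edgeR 4.0.16's robust quasi-likelihood test in R 4.3.3 (common biological coefficient of variation 32.3%). Benjamini-Hochberg adjustment ran over all tested genes of a contrast, and the threshold was 0.05. A standard error of a log2 fold change is its size divided by the root of its F statistic. A count of 3 UMIs, used as the floor, equalled 1.73 to 18.8 CPM across libraries, and all members were above it in every library. Likeness between genes was computed from log2 CPM (prior count 2). No library's counts were identical to another's (highest correlation 0.973).

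All 7 members are named in every contrast. Otherwise the rule for named genes took the 3 genes most like each member, the 3 smallest p-values of each list in the averaged zone contrast, and Irf4, leaving out predicted genes. Spi1 and Spib were added afterwards. The members, lists and marker genes were chosen with earlier results of these data known. Alternatives were DESeq2 size factors, library size alone, DESeq2 1.42.0's Wald test, limma 3.58.1 voom with sample quality weights, no filter, a stricter filter (20 counts in 3 libraries), both groups alone, replicate number as a block, read counts, leaving out the 2 libraries with the fewest UMIs, and leaving out each library. The fits were tested on simulated data. Gene positions come from a GRCm38 annotation, which is the assembly behind mm10.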

Additional observations from a re-analysis of the deposited data

Results flagged for a closer look

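Irf5 in WT DZ replicate 5, at 400 CPM, stood far from the other 3 WT DZ libraries (220.1 to 246 CPM). The gap to the next library was 0.855 of the group's range, above Dixon's 95% critical value of 0.829. Irf9 in WT DZ replicate 2, at 151 CPM, was set apart likewise from 89.0 to 92.5 CPM in the other 3, with a gap of 0.944 of the range. The test was run on the 7 genes in the WT LZ and WT DZ groups, 14 gene and group pairs in all, and chance flags about 1 in 20 such pairs. Irf7 in WT DZ replicate 5, at 146 CPM, had a gap of 0.827 and lay just inside the limit, and Irf3 there, at 494 CPM, had a gap of 0.668. Groups of 3 libraries were not tested in this way.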

How the results depend on the processing

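Of 637 recomputed fold changes of members, 566 kept direction and side of the threshold, 70 changed sign and 1 newly passed. The count of called members was 0 in every contrast and alternative except the WT zones with voom weights, where it was 1 (Irf1, log2 fold change 0.799, adjusted p 0.0284, against 0.295 with edgeR as reported and up to 0.999 over the alternatives). In that contrast voom called 292 of all 7999 genes. Sign changes, all in uncalled values, follow on the log2 scale, and their cause was not tested. For genotype in DZ, Irf8 (-0.006) was 0.012 with DESeq2 size factors and with its Wald test, 0.034 with both groups alone, 0.021 by library size, 0.215 with voom, 0.011 with the stricter filter and 0.022 without the 2 libraries with the fewest UMIs. With voom Irf3 was 0.256 and Irf7 0.262 there, and with read counts Irf9 was -0.006. For genotype in LZ, Irf2 was -0.074 by library size, -0.236 with voom, -0.021 with no filter and -0.125 without those 2 libraries, and Irf8 was -0.08 by library size and -0.098 with reads. Irf5 there was 0.077 with voom, 0.004 with the stricter filter and 0.192 without those 2 libraries, and Irf7 was 0.148 with reads and 0.006 without them. For the zones, Irf7 in WT was 0.009 with voom and Irf2 in SykY317F 0.182 with reads. For the difference of zone effects, Irf2 was -0.031 by library size, -0.163 with voom and -0.092 without those 2 libraries, Irf8 was -0.101 by library size and -0.164 with voom, Irf7 was -0.326 with voom and Irf5 -0.028 with reads.

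Leaving out 1 library changed the sign of 34 of 294 values. For genotype in DZ the ranges were -0.168 to 0.057 for Irf2, -0.342 to 0.195 for Irf3, -0.434 to 0.031 for Irf5, -0.471 to 0.297 for Irf7, -0.142 to 0.138 for Irf8 and -0.278 to 0.288 for Irf9. For genotype in LZ they were -0.544 to 0.349 for Irf2, -0.199 to 0.11 for Irf5, -0.246 to 0.075 for Irf7 and -0.115 to 0.199 for Irf8. For the zones they were -0.674 to 0.2 for Irf2 in SykY317F, and in WT -0.111 to 0.413 for Irf3 and -0.7 to 0.056 for Irf7. For the difference of zone effects they were -0.478 to 0.398 for Irf2, -0.066 to 0.391 for Irf5, -0.389 to 0.385 for Irf7 and -0.105 to 0.208 for Irf8. WT DZ replicate 5 gave 8 of these sign changes, more than any other library.

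Whether same-numbered libraries pair was not settled, with correlations of their deviations from -0.558 to 0.233 over 10 pairs. Between zones, the LZ libraries of WT replicates 2 and 3 and SykY317F replicate 2 were closest to their own number. Those of WT replicate 5 and SykY317F replicates 1 and 4 were not. Between genotypes, SykY317F replicates 1 and 2 were closest to their own number in LZ, and replicates 2 and 4 were not in DZ. With replicate number as a block 0 members were called in each contrast. The block turned Irf2 (0.068) and Irf8 (0.015) for genotype in DZ, Irf2 (-0.012), Irf5 (0.062) and Irf7 (0.134) for genotype in LZ, and Irf2 (-0.08) for the difference of zone effects.

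Counts over all genes moved more. The WT zones had 15 calls, 97 with DESeq2's Wald test, 292 with voom, 9 without the 2 libraries with the fewest UMIs, 6 with both groups alone and 0 with reads. The SykY317F zones had 3 calls, and 42, 2, 0, 1 and 20 under the same settings, with 9 by library size and 1 with the block. The averaged zones had 114 calls, 235 with the Wald test, 200 with voom, 49 with reads and 17 without those 2 libraries. Genotype in LZ had 0 calls, 43 with the Wald test, 54 with reads and 1 by library size, and the averaged genotype contrast 0, 47, 10 and 0, with 7 by voom. Genotype in DZ had 0 calls, and 2 with the Wald test. Leaving out 1 library gave 1 to 26 calls for the WT zones. They were 1, 7 and 26 without WT LZ replicates 2, 1 and 3, 6 without WT DZ replicate 3, and 9 without SykY317F LZ replicate 1 or 2. The SykY317F zones had 0 to 10, with 10 without SykY317F DZ replicate 2, 8 without WT DZ replicate 5, 5 and 1 without SykY317F LZ replicates 4 and 1, and 0 without SykY317F LZ replicate 2 or SykY317F DZ replicate 1 or 4. The averaged zones had 42 to 152, with 42 and 63 without SykY317F DZ replicates 1 and 4, 45 and 58 without SykY317F LZ replicates 1 and 2, 68 and 63 without WT LZ replicates 1 and 2, and 67 and 71 without WT DZ replicates 3 and 4. Genotype in LZ had 5, 3 and 1 without WT DZ replicate 5, WT LZ replicate 3 and WT LZ replicate 2, and the averaged genotype contrast 5, 1 and 1 without WT LZ replicates 3 and 2 and SykY317F LZ replicate 1. Genotype in DZ and the difference of zone effects had 0 calls whichever library was left out. Scaling by library size moved the median of all genes in the SykY317F zones to -0.187, from -0.042. Depth limits Irf2, Irf7 and Irf9 most, at 6 to 27 UMIs in SykY317F LZ, and Irf1 nearly as much, at 16 to 39 UMIs there.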
